A study of Mus musculus with 6 samples.

Results

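The genes described here are 7 direct transcriptional readouts of bone morphogenetic protein (BMP) signalling, namely Id1, Id2, Id3, Id4, Smad6, Smad7 and Bambi. They were chosen by symbol from a deposited table of 20325 genes, and all 7 were found there. RNA was sequenced from C3H10T1/2, an embryo-derived mouse line of multipotent mesenchymal cells able to become fat, muscle, bone or cartilage. The knockdown group was 3 libraries of parental cells given small interfering RNAs (siRNAs) against Ring1a and Ring1b, and the control group was 3 libraries of parental cells given a scrambled siRNA. All 6 came from passage 10 to 15 in serum-containing medium. Ring1a and Ring1b, encoded by Ring1 and Rnf2, supply the histone H2A ubiquitin ligase activity of Polycomb repressive complex 1, and the study asked which transcripts respond when both are depleted. A knockdown leaves part of the targeted RNA in place. Replicates are numbered in the labels but not said to be separate cultures, so the p-values reflect the spread between these samples alone, and that spread may be technical.

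BMP ligands bind paired kinase receptors that phosphorylate Smad1, Smad5 and Smad9. These enter the nucleus with Smad4 and switch on a short list of genes within minutes to hours. The Id genes encode small helix-loop-helix proteins without a DNA-binding region, which capture E proteins and so hold back tissue-specific transcription factors. Smad6 and Smad7 encode inhibitory Smads and Bambi a receptor decoy without a kinase, so that these targets act as brakes on the pathway that induces them. In mesenchymal progenitors the pathway is known for directing cells toward cartilage and bone.

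RefSeq promoter entries matched 4 of the 7 members, Id2, Id3, Id4 and Smad6. The 250 bases before each start are shown because these genes share an input from BMP Smads yet did not share a level pattern in the libraries. They are given 5′ to 3′ on the gene's strand, credited to RefSeq on build GRCm38.p6, which is newer than the mm9 build of the deposited table. Capitals mark exact matches, on either strand, to GGCGCC (a GC-rich Smad1 and Smad5 element) or to CAGAC (the Smad box).
Id2 (chr12:25096093-25096342, minus strand): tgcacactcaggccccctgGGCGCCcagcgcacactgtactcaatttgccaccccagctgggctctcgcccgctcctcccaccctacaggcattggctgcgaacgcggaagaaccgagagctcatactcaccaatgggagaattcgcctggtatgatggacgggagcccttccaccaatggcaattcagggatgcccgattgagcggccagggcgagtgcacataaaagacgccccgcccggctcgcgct
Id3 (chr4:136143572-136143821, plus strand): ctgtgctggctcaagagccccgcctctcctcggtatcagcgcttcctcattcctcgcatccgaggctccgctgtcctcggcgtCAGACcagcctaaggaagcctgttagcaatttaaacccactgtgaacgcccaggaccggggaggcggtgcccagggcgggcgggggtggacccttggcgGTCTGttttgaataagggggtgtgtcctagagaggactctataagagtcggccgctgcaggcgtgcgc
Id4 (chr13:48260866-48261115, plus strand): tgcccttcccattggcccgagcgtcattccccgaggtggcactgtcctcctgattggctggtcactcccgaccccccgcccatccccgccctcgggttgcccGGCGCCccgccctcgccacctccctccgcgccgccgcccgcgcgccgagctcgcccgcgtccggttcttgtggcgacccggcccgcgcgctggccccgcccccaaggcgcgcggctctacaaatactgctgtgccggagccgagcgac
Smad6 (chr9:64022060-64022309, minus strand): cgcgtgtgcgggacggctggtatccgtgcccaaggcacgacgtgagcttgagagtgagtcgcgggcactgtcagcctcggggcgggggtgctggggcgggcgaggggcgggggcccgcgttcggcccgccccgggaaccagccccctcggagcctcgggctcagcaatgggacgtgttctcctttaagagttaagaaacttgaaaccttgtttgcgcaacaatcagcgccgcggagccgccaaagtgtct

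The GGCGCC element occurred once before Id2, 231 to 226 bases from the start, and once before Id4, 148 to 143 bases from it. Of 32536 promoters of the same length, 9.65% held it. The Smad box occurred in 2 places before Id3, starting 167 and 68 bases from the start, and 42.2% of promoters held at least 1. CACCTG, an E-box that E proteins bind, and TGACGT, the core of the cyclic AMP element, were in none of the 4 windows; of all promoters 17.3% and 6.50% held them. No match overlapped another. The window before Id4 was 75.6% G and C and that before Smad6 66.8%, while those before Id2 and Id3 were both at 62.8%, against a median of 52.4% over all promoters. A match is a run of letters in these windows and not a measured binding site.

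Every expression value below is a normalized read count as deposited. Fold changes are differences of knockdown minus control in log2(value + 1), a scale that shrinks the change of low genes. The test covered the 12085 genes whose mean over the 6 libraries reached 10, and a gene counts as called at an adjusted p under 0.05 (limma, Benjamini-Hochberg over all genes tested). Rnf2 stood at 129, 76.5 and 152 in knockdown replicates 1, 2 and 3, against 815, 829 and 799 in control replicates 1, 2 and 3 (log2 fold change −2.82, SE 0.28, limma adjusted p = 0.00946). In 4 of the 6 fits that dropped a library, those lacking any of the controls or knockdown replicate 1, its adjusted p in limma was 0.0646 to 0.0852, and with the replicate number as a block it was 0.102. Ring1 stood at 162, 268 and 186 in the knockdowns, against 336, 386 and 374 in the controls, with an adjusted p in limma of 0.104 over all libraries and 3.86e-06 when knockdown replicate 2 was dropped. Knockdown replicate 2 stood apart. Across genes, which are not independent replicates, Pearson's r between its log2 values and those of each other library was 0.821 to 0.867, while every other pair reached 0.944 to 0.993. Its depth, estimated from the value of 1 read, was 4600000 reads, beside 23200000 and 18500000 in the other knockdowns and 51800000, 5400000 and 15100000 in the controls. Its normalized values summed to 19500000, against 13100000 to 13700000 in every other library. Where its values lie beside those of other libraries therefore depends on the scaling. Fold changes of the members and of named pathway genes, and the ratios, are therefore given with and without it. Markers of the labelled cell type were present. All 10 mesenchymal markers were expressed, summing to 282600 to 395600 in the knockdowns and 336700 to 365200 in the controls, most of it Col1a1, Col1a2 and Vim. For 3 of them every knockdown lay above the controls and for 3 below, as for 20.5% and 23.7% of all genes tested. With all libraries 0 were called. Without knockdown replicate 2, 7 rose and 3 fell of 10, where 23.8% of all genes rose and 26.1% fell. By contrast, 5 leukocyte markers summed to 8.53 to 17.0 in the knockdowns and 9.94 to 14.9 in the controls, with Cd3e at 0 throughout. Sums were 14.9 to 42.5 in the knockdowns and 15.0 to 28.0 in the controls for 5 epithelial markers, and 106 to 157 in the knockdowns and 87.7 to 108 in the controls for 5 endothelial markers, nearly all of it Tek. Of 5 neuronal markers, 4 were in the table and summed to 305 to 536 in the knockdowns and 201 to 291 in the controls, most of it Stmn2, with Snap25 at 0 throughout; their part in the results was not tested.

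The 7 response genes did not move as a block. Id1 was higher in all 3 knockdown libraries than in any control and Bambi and Id2 were lower in all 3, while Smad6, Smad7 and Id4 stood at 1.80 to 2.34 times their control means in knockdown replicates 1 and 3 and within the control range in knockdown replicate 2, and Id3 stood above every control in knockdown replicates 1 and 3 and below every control in knockdown replicate 2. The groups were thus fully apart for 1 member on the higher side and 2 on the lower side, as they were for 20.5% and 23.7% of all genes tested. With all 6 libraries 0 of 7 members were called in either direction (limma; 2 of 7 at an unadjusted p under 0.05, as were 20.5% of all genes), against 4.98% of all genes tested (3.2% as higher and 1.78% as lower). Without knockdown replicate 2, 5 members rose (Id1, Id3, Id4, Smad6 and Smad7) and 1 fell (Bambi) of 7, where 49.9% of 11995 genes were called, 23.8% as higher and 26.1% as lower. The median log2 fold change of the members was 0.58 with all libraries and 0.60 without knockdown replicate 2, beside 0.01 and −0.02 over all genes tested. In bulk RNA, fewer cells of a type and less RNA per cell cannot be told apart.

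**Figure D1:**
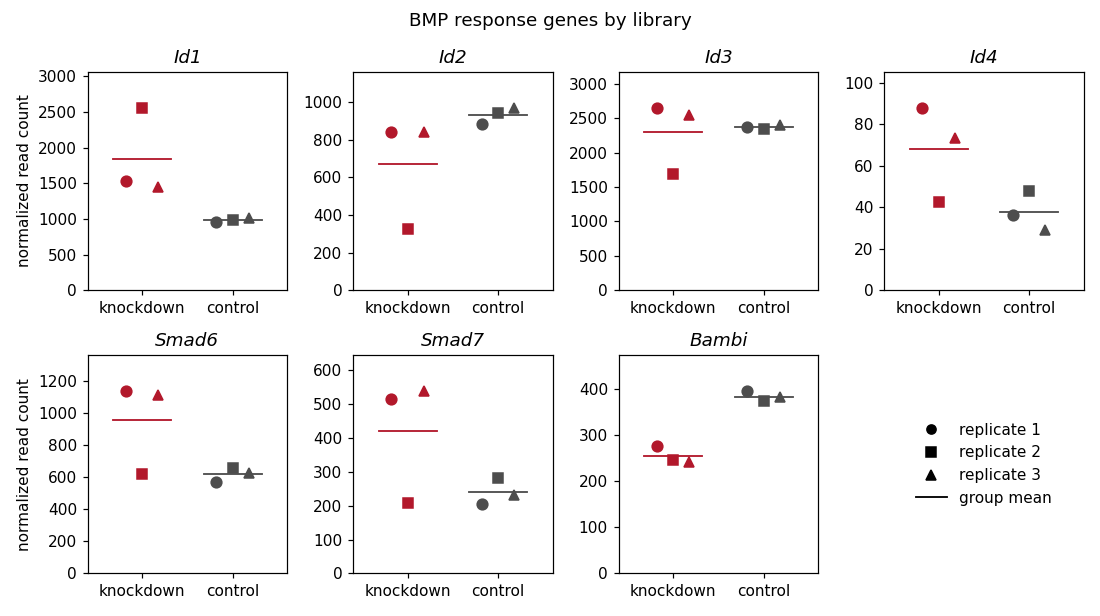
Normalized read count (vertical axes, from 0) of each response gene in the 3 knockdown and 3 control libraries; marker shape gives the replicate number and lines are group means. Knockdown replicate 2 (squares) is the highest library for Id1, at 2551, and the lowest for Id2, at 327, while the 3 Bambi values in the knockdowns, 242 to 278, all lie below the controls.

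Id1, the member most often used as a reporter of BMP activity, had 1526, 2551 and 1450 normalized read counts in knockdown replicates 1, 2 and 3, against 957, 985 and 1011 in control replicates 1, 2 and 3. The groups did not overlap, the controls lay close together, and knockdown replicate 2 was far above the other knockdowns. Mean levels were 1842 ± 615 in knockdown cells and 984 ± 26.8 in control cells (SD, n = 3 each), 1.87-fold higher, with a log2 fold change of 0.85 (SE 0.25) that did not pass (limma adjusted p = 0.129). Without knockdown replicate 2 the difference was smaller and passed, at 0.60 (SE 0.06, limma adjusted p = 3.97e-06). It also passed with all 6 libraries after a correction for transcript length (log2 fold change 0.60, limma adjusted p = 0.0249). At the estimated depth the Id1 value of knockdown replicate 2 rested on 600 reads, with a 95% exact Poisson interval of 2351 to 2763 that lies above every other library; this and the other read-based intervals cover counting error only.

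Id2, whose protein restrains differentiation and also binds the retinoblastoma protein, lay on the other side of its controls. It had 841, 327 and 839 normalized read counts in the knockdowns, against 885, 942 and 968 in the controls. All 3 knockdowns lay below the lowest control, 2 of them only just, and knockdown replicate 2 stood at 0.351 of the control mean. The log2 fold change was −0.60 (SE 0.40, limma adjusted p = 0.422), and without knockdown replicate 2 it was −0.15 (SE 0.06, limma adjusted p = 0.0589). Neither passed. The value in knockdown replicate 2 came from an estimated 77 reads (interval 259 to 409), below the other 5 libraries.

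Id3, the most abundant member, had 2647, 1684 and 2553 normalized read counts in the knockdowns, against 2370, 2350 and 2404 in the controls. Knockdown replicates 1 and 3 lay above all controls and knockdown replicate 2 below them all. The log2 fold change was −0.08 (SE 0.21, limma adjusted p = 0.819) with all libraries and 0.13 (SE 0.05, limma adjusted p = 0.0429) without knockdown replicate 2, so its direction turned on that library. Group means were 2295 ± 531 in knockdown cells and 2375 ± 27.0 in control cells (SD, n = 3 each).

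Id4, which in mouse is best known from the nervous system, was the member with the lowest level. It had 87.6, 42.5 and 73.2 normalized read counts in the knockdowns, against 36.0, 47.6 and 28.9 in the controls. Knockdown replicates 1 and 3 lay above every control, at 2.34 and 1.95 times the control mean, and knockdown replicate 2 lay among the controls. The log2 fold change was 0.80 (SE 0.35, limma adjusted p = 0.267), and it passed without knockdown replicate 2 at 1.10 (SE 0.23, limma adjusted p = 0.0016). Depth limits this gene most: knockdown replicate 2 rested on an estimated 10 reads (interval 20.4 to 78.2) and control replicate 2 on 19 (interval 28.7 to 74.4), intervals that each reach into the values of the other group.

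**Figure D2:**
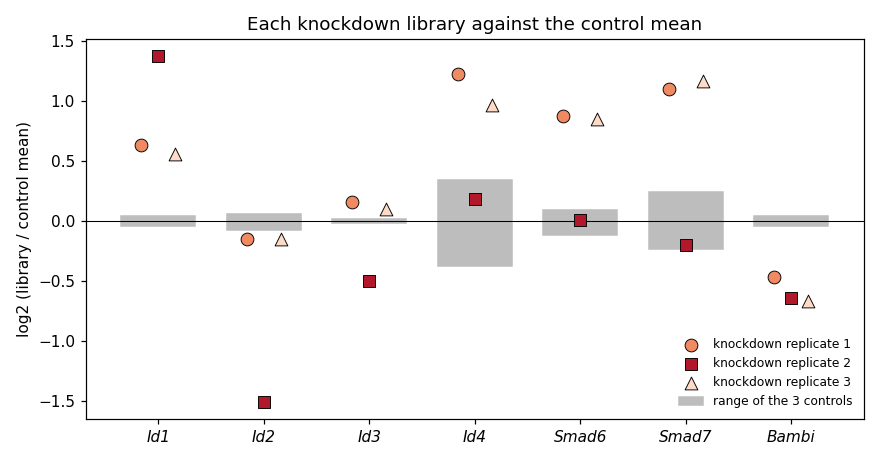
Level of each response gene in each knockdown library relative to the control mean (vertical axis, log2), with grey boxes for the range of the 3 controls. Circles and triangles (knockdown replicates 1 and 3) sit next to each other for every gene, while the squares (knockdown replicate 2) sit inside the control range for Id4, Smad6 and Smad7 and far from it for Id1 and Id2.

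Smad6, the inhibitory Smad that acts mainly on BMP receptors and Smad1, had 1132, 621 and 1113 normalized read counts in the knockdowns, against 571, 659 and 623 in the controls. Knockdown replicates 1 and 3 stood at 1.83 and 1.80 times the control mean, above every control, and knockdown replicate 2 stood at 1.005 times. The log2 fold change was 0.58 (SE 0.27, limma adjusted p = 0.297) with all libraries and 0.86 (SE 0.07, limma adjusted p = 1.17e-06) without knockdown replicate 2, where Smad6 rose.

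Smad7, which restrains both BMP and TGF-beta receptors and is a target of both pathways, had 515, 208 and 537 normalized read counts in the knockdowns, against 204, 283 and 231 in the controls. The pattern was that of Smad6: knockdown replicates 1 and 3 stood above every control, at 2.15 and 2.24 times the control mean, and knockdown replicate 2 stood inside the control range. The log2 fold change was 0.70 (SE 0.41, limma adjusted p = 0.376), and 1.15 without knockdown replicate 2 (SE 0.12, limma adjusted p = 1.75e-05), the largest rise of the 7 in that fit. In knockdown replicate 2 the estimated 49 Smad7 reads gave an interval of 154 to 275, below knockdown replicates 1 and 3, and the estimated 146 Smad6 reads gave 524 to 730, also below them.

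Bambi, the decoy receptor, had 278, 247 and 242 normalized read counts in the knockdowns, against 395, 373 and 382 in the controls. All 3 knockdowns were lower than all 3 controls, and knockdown replicate 2 lay between the other knockdowns. Group means were 255 ± 19.5 in knockdown cells and 383.5 ± 10.96 in control cells (SD, n = 3 each), 1.502-fold lower in the knockdown. The log2 fold change of −0.59 (SE 0.14) just missed the threshold (limma adjusted p = 0.0853), and without knockdown replicate 2 Bambi fell by 0.56 on the log2 scale (SE 0.09, limma adjusted p = 0.000209). It was the member whose fold change depended least on any single library, from −0.65 to −0.55 when each was left out in turn. After the correction for transcript length it was −0.28 (limma adjusted p = 0.472) and its groups overlapped.

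**Figure D3:**
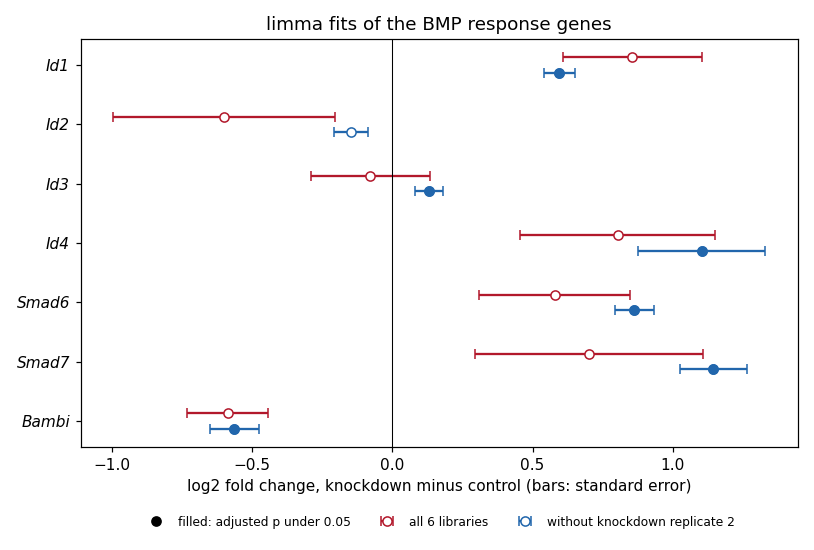
Log2 fold change, knockdown minus control, of each response gene (horizontal axis, bars are standard errors) from limma with all 6 libraries and without knockdown replicate 2; filled points have an adjusted p under 0.05. None is filled with all libraries, and every gene except Id2 is filled without knockdown replicate 2, with the 2 fits on opposite sides of 0 for Id3.

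Ratios between members within a library do not depend on how the libraries were scaled. The log2 ratio of Id1 to Id2 was 0.86, 2.96 and 0.79 in knockdown replicates 1, 2 and 3, against 0.11, 0.06 and 0.06 in the controls, and that of Id1 to Id3 was −0.79, 0.60 and −0.82 in the knockdowns, against −1.31, −1.25 and −1.25 in the controls. Id1 thus made up more of the Id RNA in every knockdown library, 29.9, 55.4 and 29.5% of the summed Id1 to Id4 values, against 22.5, 22.8 and 22.9% in the controls, and Id2 made up less, 16.5, 7.11 and 17.1% in the knockdowns, against 20.8, 21.8 and 21.9% in the controls. The summed Id values themselves were 5102, 4604 and 4915 in the knockdowns and 4248, 4325 and 4411 in the controls. Of 7 ratios, 5 separated the groups completely, those of Id1 to Id2, Id1 to Id3, Id2 to Id3, Id2 to Id4 and Id3 to Id4 (exact permutation test, two-sided, p = 0.1 each, the smallest that 3 against 3 allows; adjusted p = 0.14 over 7 ratios). Relative to Id4, both Id2 and Id3 were lower in every knockdown library than in any control, with log2 differences in the ratio of −1.40 and −0.88. Without knockdown replicate 2 the knockdown minus control difference in the log2 ratio was 0.74 for Id1 to Id2, beside 1.455 with all libraries, 0.465 for Id1 to Id3, beside 0.93, and −0.28 for Id2 to Id3, beside −0.52. Those of Id2 and Id3 to Id4 were −1.25 and −0.97, and all 5 had an adjusted p of 0.14 (exact permutation test). That is the smallest adjusted p possible where 5 of 7 ratios reach the smallest exact p of 0.1. It therefore cannot show how firm these 5 are. Without knockdown replicate 2 the ratio of Id1 to Id4 separated the groups too, at 4.11 and 4.29 in the knockdowns, against 4.695, 4.34 and 5.08 in the controls. Its difference was then −0.51 (exact permutation test, adjusted p = 0.2), beside 0.05 with all libraries. The ratios also share the same Id genes and are not independent. The ratio of Smad6 to Smad7 overlapped between the groups with all libraries (exact permutation p = 0.6, adjusted p = 0.7). Its mean log2 was 1.25 ± 0.28 in knockdown cells and 1.38 ± 0.14 in control cells (SD, n = 3 each). The overlap came from knockdown replicate 2, at 1.57. Knockdown replicates 1 and 3, at 1.135 and 1.05, lay below every control, at 1.48, 1.22 and 1.43. Without knockdown replicate 2 the difference was −0.28 (exact permutation test, adjusted p = 0.2).

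Levels of different genes were compared per kilobase of transcript, with median lengths of protein-coding transcripts from GENCODE M21. Each length was the median over all such transcripts of a gene, short ones included, for example 1622 nt for Smad6 and 1270 nt for Id2. The order between genes depends on these lengths, and other choices of length were not tried. In control cells the order was Id3 (1858 ± 21.1 normalized read counts per kilobase), Id1 (940 ± 25.6), Id2 (733.5 ± 33.3), Smad6 (381 ± 27.2), Smad7 (179 ± 30.1), Bambi (75.6 ± 2.16) and Id4 (9.74 ± 2.45; SD, n = 3), and no neighbours overlapped. In knockdown cells Smad6 and Id2 changed places at these lengths. The order was Id3 (1795 ± 416), Id1 (1760 ± 587), Smad6 (589 ± 179), Id2 (527 ± 233), Smad7 (314 ± 137), Bambi (50.3 ± 3.85) and Id4 (17.6 ± 5.99, all SD, n = 3). Id3 and Id1 overlapped there, as did Smad6 with Id2 and Id2 with Smad7. In knockdown replicates 1 and 3 alone the order was the same and no neighbours overlapped. Within every knockdown library Smad6 per kilobase exceeded Id2, at 698, 383 and 686 against 662, 258 and 661, and in every control library it was below it, at 352, 406 and 384 against 697, 742 and 762.

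Transcript length, taken as the same median, moved with the difference between knockdown replicate 2 and the mean of knockdown replicates 1 and 3. Each member was therefore set beside its own length bin (1 of 4 of about equal size). Bin medians of this log2 difference were 0.81 for the shortest transcripts, 0.25 and −0.29 in the next bins and −0.84 for the longest. Id1, at 1047 nt in the shortest bin, differed by 0.78, close to that median. Id2 (1270 nt) and Id3 (1278 nt), in the same bin, differed by −1.36 and −0.63, lower than all but 4.52 and 15.2% of its genes. Smad6 (1622 nt) and Smad7 (1337.5 nt), in the next bin, differed by −0.85 and −1.33, with 15.2 and 7.16% of its genes below them. Id2, Id3 and Smad7 lie close to the cut between these bins, at 1305 nt, so their shares depend on where it falls. In the longest bin Id4 (3849 nt) differed by −0.90, near the bin median, and Bambi (5074 nt) by −0.07, above 80.2% of its genes. Knockdown replicates 1 and 3 differed from each other by at most 0.26 in any member. What sets knockdown replicate 2 apart was not tested.

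Upstream of these targets, the BMP ligand gene Bmp4 rose in all 3 knockdown libraries. It had 5622, 5222 and 4638 normalized read counts in the knockdowns, against 617, 704 and 722 in the controls, with a log2 fold change of 2.92 (SE 0.15, limma adjusted p = 0.00287), and 2.91 without knockdown replicate 2 (SE 0.09, limma adjusted p = 2.08e-08). Dropping control replicate 1, 2 or 3 ended the call, with adjusted p-values in limma of 0.0537, 0.0536 and 0.0707. Bmp4 was the 1 ligand gene of 13 listed that reached a mean of 10. Among the 12 others Gdf6, named after its values were seen, had 23.2, 8.50 and 14.2 in the knockdowns, against 1.55, 2.51 and 0.903 in the controls, and the authors' deposited table of 323 differential genes lists it at a fold of 9.30. The same list holds Bmp4 at 7.69 and Rnf2 at 0.148, and 0 response genes. It is limited to folds of at least 4.01 or at most 0.242. Of these Gdf6 values, those of knockdown replicate 2, control replicate 2 and control replicate 3 lie under the worth of 3 reads (12.8, 7.52 and 2.71). Those of knockdown replicates 1 and 3 and control replicate 1 lie above it (1.70, 2.13 and 0.777). The fold thus rests on few reads in the controls and in knockdown replicate 2.

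On the receiving side of the pathway 1 gene passed. Of 9 tested receptor and coreceptor genes 1 rose and 0 fell, where 3.2% of all genes rose and 1.78% fell. At an unadjusted p under 0.05 in limma there were 2, as were 20.5% of all genes. The groups were fully apart for 1 of the 9 on the higher side and 3 on the lower side, as for 20.5% and 23.7% of all genes tested. Eng, encoding endoglin, an accessory receptor for ligands of the BMP and TGF-beta families, was the gene that rose. Its normalized read counts were 1061, 1360 and 1146 in the knockdowns, against 600, 646.5 and 682 in the controls (log2 fold change 0.88, SE 0.16, limma adjusted p = 0.0377). Without knockdown replicate 2 Eng had a log2 fold change of 0.78 (limma adjusted p = 2.83e-06). It missed the threshold in each fit that left out a library other than knockdown replicate 2 (limma adjusted p = 0.116 to 0.206) and with total scaling (0.11). Of the 4 Smads that carry the signal, 0 passed (1 at an unadjusted p under 0.05 in limma, as were 20.5% of all genes). Smad5 was lower in every knockdown library, at 1459, 1382 and 1516 against 2065, 1946 and 1981 in the controls (log2 fold change −0.46, limma adjusted p = 0.117), and Smad4, the shared partner, stood at 1020, 544 and 1078 in the knockdowns, against 1171, 1238 and 1208 in the controls (−0.52, limma adjusted p = 0.365). Without knockdown replicate 2, 2 receptor genes rose and 2 fell of 9, and 1 signalling Smad rose and 2 fell of 4, where 23.8% of all genes rose and 26.1% fell. Smad5 and Smad4 were the ones that fell, with log2 fold changes of −0.42 and −0.20 (limma adjusted p = 3.7e-05 and 0.0109).

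Brakes other than the members also gave no call with all libraries. Of 7 tested secreted antagonist genes 0 passed (2 at an unadjusted p under 0.05 in limma, as were 20.5% of all genes). Twsg1, encoding a secreted BMP-binding protein, stood at 2057, 1085 and 1999 in the knockdowns, against 3074, 2987 and 2900 in the controls (log2 fold change −0.86, limma adjusted p = 0.162). Nbl1, encoding a DAN-family antagonist, stood at 596, 825 and 546 in the knockdowns, against 544, 553 and 595 in the controls (0.19, limma adjusted p = 0.554). Of 7 intracellular brakes 0 passed (0 at an unadjusted p under 0.05). The corepressor gene Ski and the ubiquitin ligase gene Smurf2 had log2 fold changes of 0.02 and 0.18 (limma adjusted p = 0.963 and 0.79). Like Id3, both were higher than every control in knockdown replicates 1 and 3 and lower than every control in knockdown replicate 2. Ski had 3370, 1901 and 3562 normalized read counts in the knockdowns, against 2752, 2832 and 2801 in the controls. Smurf2 had 2385, 884 and 2555 normalized read counts in the knockdowns, against 1511, 1557 and 1562 in the controls. Without knockdown replicate 2, 4 intracellular brakes rose and 1 fell of 7, and 2 secreted antagonists rose and 2 fell of 7, against 49.9% of all genes called. Log2 fold changes in that fit were 0.31 for Ski, 0.68 for Smurf2 and −0.56 for Twsg1 (limma adjusted p = 0.000326, 9.34e-07 and 3.16e-06), and 0.02 for Nbl1 (0.865). The direction of Ski reversed with total scaling and, for both genes, without knockdown replicate 1 or 3.

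Of 7 other BMP target genes tested, 0 passed (0 at an unadjusted p under 0.05), with a median log2 fold change of 0.21. Atoh8, encoding a bHLH factor induced by BMP, had 678, 1356 and 587 normalized read counts in the knockdowns, against 456, 499 and 484 in the controls (log2 fold change 0.76, SE 0.33, limma adjusted p = 0.272). Its profile was like that of Id1, with all 3 knockdowns above the controls and knockdown replicate 2 the highest. Runx2, the bone regulator, stood at 945, 455 and 1031 in the knockdowns, against 1124, 1129 and 1149 in the controls (−0.57, limma adjusted p = 0.378). Without knockdown replicate 2, 4 rose and 1 fell of 7, against 49.9% of all genes called. Both fold changes were then nearer 0 on the log2 scale, 0.40 for Atoh8, which rose, and −0.20 for Runx2, which fell (limma adjusted p = 0.00134 and 0.0133). Of 9 TGF-beta target genes, set beside them because Smad7 answers to that pathway too, 0 passed. At an unadjusted p under 0.05 in limma there were 4, as were 20.5% of all genes tested. Without knockdown replicate 2, 5 rose and 1 fell, where 23.8% of all genes rose and 26.1% fell. The 2 most abundant, the matrix genes Postn and Ltbp2, had log2 fold changes of −0.12 and 0.37 (limma adjusted p = 0.779 and 0.38), and of 0.12 and 0.53 without knockdown replicate 2 (limma adjusted p = 0.153 and 0.00117).

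The partners of the Id proteins were measured as well. All 3 E protein genes were lower in every knockdown library than in any control, as were 23.7% of all genes tested. With all libraries 0 passed (2 at an unadjusted p under 0.05 in limma, as were 20.5% of all genes). Tcf4 had 2199, 1771 and 2209 normalized read counts in the knockdowns, against 3223, 3291 and 3165 in the controls (log2 fold change −0.65, SE 0.15, limma adjusted p = 0.0758), and Tcf3 had 2540, 2365 and 2610 in the knockdowns, against 3289, 3323 and 3293 in the controls (−0.40, SE 0.13, limma adjusted p = 0.161). All 3 fell without knockdown replicate 2, as did 26.1% of all genes, Tcf4 with a log2 fold change of −0.55 (limma adjusted p = 2.58e-06) and Tcf3 with −0.36 (7.31e-05). A list of 15 other bHLH genes held factors that pair with E proteins or act beside them, not all of them tissue-specific. Of these 5 were tested and 1 passed, where 4.98% of all genes passed. Hes1, a repressor known as a Notch target, rose, with 427, 761 and 427 in the knockdowns against 140, 168 and 185 in the controls (log2 fold change 1.66, SE 0.28, limma adjusted p = 0.0337), but missed the threshold in each fit that left out a library other than knockdown replicate 2 (0.0839 to 0.169); without that replicate its log2 fold change was 1.38 (limma adjusted p = 1.66e-06). Over all these pathway and partner genes, 51 tested, 3 rose and 0 fell with all libraries, and 21 rose and 13 fell without knockdown replicate 2. Over all genes 4.98% were called with all libraries and 49.9% without knockdown replicate 2.

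**Figure D4:**
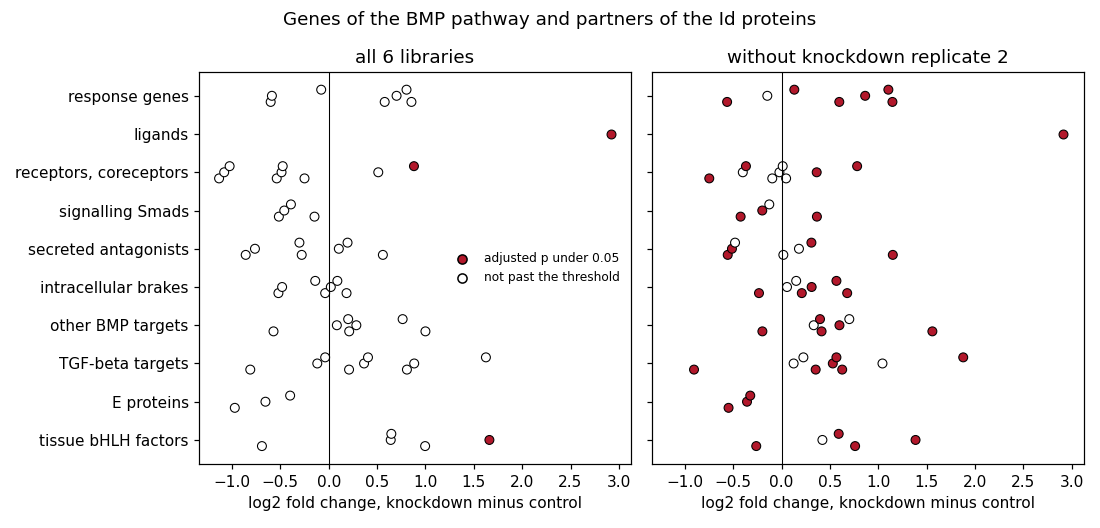
Log2 fold change, knockdown minus control (horizontal axes), of the response genes, the other BMP pathway genes, TGF-beta targets and the bHLH partners of the Id proteins that were tested, 1 point per gene, with all 6 libraries and without knockdown replicate 2; filled points have a limma adjusted p under 0.05. Bmp4 at 2.92, Hes1 at 1.66 and Eng at 0.88 are the filled points with all libraries, and all 3 E proteins lie below 0 in both panels.

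Similarity of pattern was measured over the 6 libraries as the root-mean-square difference between log2 profiles after centring each gene on its own mean. Among the members the most alike were Smad6 and Smad7, at 0.19 log2 units, followed by Smad6 and Id4 at 0.23 and Smad7 and Id4 at 0.23, and the least alike were Id1 and Id2, at 1.02. These distances turned on knockdown replicate 2: over the other 5 libraries, a comparison added after seeing the data, the smallest distances were those of Id1 and Smad6 (0.14), Id2 and Id3 (0.14) and Smad6 and Smad7 (0.17), Id1 and Id2 were 0.37 apart, and Smad7 and Bambi were the least alike at 0.86. The nearest other genes, among those with a mean of at least 50, turned on it as well, since only 2 of the 21 named next were again among the 3 nearest without that library. Over all 6 libraries, the nearest to Id1 were Tinf2, H2afz and Fscn1 (0.04 to 0.05), and the nearest to Id2 were Mark4, Srebf2 and Ranbp9 (0.03 to 0.04). Those nearest to Id3 were Tfg, Clptm1l and Rab3gap1 (0.02 to 0.03), and to Id4 Llgl2, Lhx2 and Raet1a (0.02 to 0.12). Smad6 was nearest to Cdr2, Lifr and Jub (0.06 to 0.07), Smad7 to Rock2, Rin1 and Wwc1 (0.08 to 0.11), and Bambi to Zbtb5, Zfp651 and Tmem140 (0.03 to 0.04). Median differences over all such genes ran from 0.40 for Id3 to 0.68 for Smad7, and no member was among the 3 nearest genes of another.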

How the data were processed

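Per the labels' protocols, RNA was extracted with Trizol and made into Illumina TruSeq libraries. The submitters' processing notes name the tools Bowtie 1.0.0 and RSEM 1.2.12 and the build mm9. Annotation and strand use are unknown here, so reads of overlapping or antisense genes cannot be separated. The authors deposited a normalized signal per gene and library, which is RSEM's estimated read count over a size factor (median normalization, going by the table's name). A second table by the authors gives a fold ratio for 323 differential genes, with no statement of its test; every fold listed is at least 4.01 or at most 0.242.

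Deposited totals were 13100000 to 13700000, except for 19500000 in knockdown replicate 2. The commonest of the lowest values was read as 1 read, from 0.259 in control replicate 1 to 4.25 in knockdown replicate 2. Only 88.4 to 90.3% of values up to 20 reads were whole multiples of it (tolerance 0.1 read), so count tests were not used. A limit of 3 reads equals 0.777 to 12.8 in the deposited unit. Libraries of a group all differed by more than sampling noise (chi-square per degree of freedom of 1.496 or more on estimated reads) and each counted as a sample.

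Log2(value + 1) was fitted with limma 3.58.1 in R 4.3.3, as a linear model with a trended, robust empirical Bayes step and two-sided tests, over genes with a mean of 10 or more. Ratios between members were compared by exact permutation. Transcript lengths were found for 98.9% of tested genes. Alternatives were other pseudocounts, filters and scalings, a replicate block, sample weights, a length correction and leaving out each library. Named genes are the members, Ring1 and Rnf2; per pathway list up to 4 that passed, by adjusted p, or the 2 most abundant; and the 3 nearest profiles per member. Members and lists were chosen with earlier results of these data known.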

Additional observations from a re-analysis of the deposited data

How the results depend on the processing

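Which response genes were called turned on knockdown replicate 2. Leaving out each library in turn gave 0 to 6 called members, 0 to 5991 called genes and 0 to 34 called pathway and partner genes, against 0, 602 and 3 with all 6. The 6 members, 5991 genes and 34 pathway genes came without knockdown replicate 2; without a control library 0 genes were called (limma; 1475 to 1529 at an unadjusted p under 0.05), and 28 and 94 without knockdown replicates 1 and 3. In these fits the log2 fold change ran from 0.60 to 1.003 for Id1, −0.83 to −0.15 for Id2, −0.20 to 0.13 for Id3, 0.59 to 1.10 for Id4, 0.43 to 0.86 for Smad6, 0.46 to 1.15 for Smad7 and −0.65 to −0.55 for Bambi. It ran from −0.14 to 0.31 for Ski, −0.088 to 0.68 for Smurf2 and −0.25 to 0.12 for Postn, and the knockdown minus control difference in the log2 ratio of Id1 to Id4 from −0.51 to 0.38.

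Sample weights were estimated by limma's gene-by-gene method, chosen after seeing the data because the default estimate did not converge, and gave knockdown replicate 2 a weight of 0.0172 and every other library 1.45 to 3.14. With them 6 members, 6302 genes and 37 pathway genes were called, with Id1 at 0.61, Id3 at 0.13 (reversed), Id4 at 1.22, Smad6 at 0.88, Smad7 at 1.17, Bambi at −0.54 and Postn at 0.12 (reversed). The length correction called 1 member, Id1 at 0.60, and 997 genes, and put Postn at 0.0047. Total scaling, which moved the median of all genes from 0.01 to −0.14, called 300.0 genes and put Ski at −0.12. With no filter 2 genes and 0 pathway genes were called (1744 and 12 at an unadjusted p under 0.05). The cause of these shifts was not tested.

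With the replicate number as a block 0 genes, 0 pathway genes and 0 members were called (1866, 14 and 2 at an unadjusted p under 0.05). Same-numbered libraries deviated from their group means with correlations across genes of 0.17, −0.05 and −0.05. The knockdown mean includes knockdown replicate 2, which stood apart, so these correlations cannot decide whether the numbers mark a pairing. The labels give a number only, and the main fit assumed no pairing. Depth limits Id4 most, with 10 estimated reads in knockdown replicate 2.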
